A study of Mus musculus with 25 samples.

Results

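The 6 mature arms of the hairpins miR-342, miR-151 and miR-664 were followed across 6 comparisons of the mouse hypothalamus, 3 in males and 3 in females. They are mmu-miR-342-5p, mmu-miR-342-3p, mmu-miR-151-5p, mmu-miR-151-3p, mmu-miR-664-5p and mmu-miR-664-3p, found by name, and make up 6 of the 1618 miRNAs in the authors' deposited tables. They were chosen by their folds and p-values in these comparisons with the RD-RD controls, so those values are given as a description and support no test. Small RNA was sequenced from wild-type C57BL/6J mice aged 3 months, with libraries that carry unique molecular identifiers (UMIs). Each group is named by the diet of the dam and then that of the offspring, either a hypercaloric diet (HCD) with 52% fat and much sucrose or a regular chow diet (RD). Dams ate their diet from 1 month before mating until the end of lactation, and offspring ate theirs from weaning. HCD-HCD mice thus had HCD at both stages, HCD-RD mice only through the dam, RD-HCD mice only after weaning, and RD-RD mice, the controls, never. Each group had 3 libraries, except RD-RD males with 4. Whether libraries are separate animals, and which dam or litter each comes from, is not in the labels, so a p-value here measures only the spread between libraries, which may be technical.

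A miRNA hairpin is cut by the enzymes Drosha and Dicer into a duplex of a 5p and a 3p arm. Usually the Argonaute protein keeps mainly 1 arm, the guide, while the other, the passenger, is degraded, so the arms of a single transcript can reach different levels. Bases 2 to 8 of a mature arm, the seed, pair with target messenger RNAs, which gives the arms of a hairpin different targets. The 3 hairpins are intronic: miR-342 lies in Evl, an actin regulator of the Ena/VASP family, miR-151 in Ptk2, the gene of focal adhesion kinase, and miR-664 in Rab3gap2, a subunit of a regulator of the synaptic vesicle GTPase Rab3. In mice miR-342-5p is known to act in neural stem cells downstream of Notch, and miR-342-3p is known from brain and immune cells. In human liver cancer cells miR-151 promotes migration together with its host kinase.

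Mature sequences for 4 of the 6 arms were matched in RefSeq (GRCm38.p6), which held 1389 of the 1618 miRNA names. They are shown 5′ to 3′, with the seed in capitals, because the called arm and its partner in each hairpin carry unlike seeds.
miR-342-5p: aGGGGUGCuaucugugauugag
miR-342-3p: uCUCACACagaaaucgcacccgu
miR-664-5p: cUGGCUGGggaaaaugacugg
miR-664-3p: uAUUCAUUuacuccccagccua
No other mature miRNA in that table shared bases 2 to 8 with any of the 4. Both 3p arms begin with U, as do 40.0% of the matched miRNAs, whereas miR-342-5p begins with A and miR-664-5p with C. The GC content was 50% in miR-342-5p and 52.2% in miR-342-3p, and 57.1% in miR-664-5p and 40.9% in miR-664-3p.

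The hairpins show how the arms face each other, with the arms in capitals and the flanks and loop in lower case, on the plus strand of GRCm38.p6.
miR-342, chr12:108658620-108658718: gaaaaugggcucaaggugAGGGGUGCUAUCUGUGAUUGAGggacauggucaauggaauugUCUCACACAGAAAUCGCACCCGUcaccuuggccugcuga
miR-664, chr1:185242975-185243043: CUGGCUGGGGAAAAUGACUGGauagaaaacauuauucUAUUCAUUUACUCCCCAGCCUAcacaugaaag
In the fold predicted by RNAfold, 17 of the 22 bases of miR-342-5p paired with the 3p arm, and 15 of the 21 bases of miR-664-5p did. The predicted folding energy was -46.8 kcal/mol for miR-342 and -28.1 kcal/mol for miR-664. The miR-664 hairpin starts at the first base of its 5p arm, while miR-342-5p lies inside its hairpin.

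In GENCODE M21 on GRCm38 every hairpin lay on the strand of its host gene and overlapped no exon of any host transcript. miR-342 lay in intron 3 of 13 of the principal Evl transcript, 5520 bases after the exon before it and 14570 bases ahead of the next. On the minus strand, miR-151 (chr15:73254815-73254882) lay in intron 22 of 31 of Ptk2, 2151 bases after the exon before it and 12337 ahead of the next. miR-664 lay in intron 9 of 34 of Rab3gap2, with 2214 bases before it and 3592 after it.

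**Figure D1:**
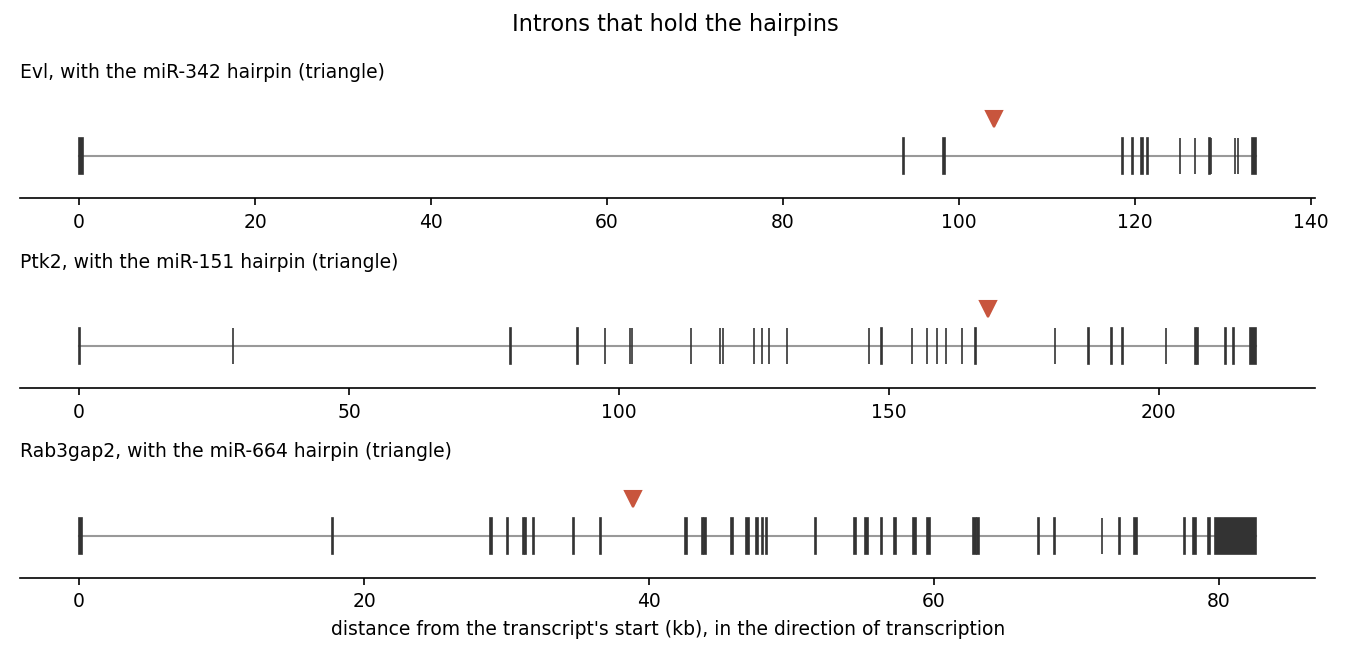
Exons (bars) of the principal transcripts of Evl, Ptk2 and Rab3gap2 along the distance from the transcript start in kb, each on its own scale, with a triangle at the hairpin. Each hairpin sits between exons, in intron 3 of Evl, intron 22 of Ptk2 and intron 9 of Rab3gap2.

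The authors' deposited tables hold, for a miRNA in a comparison, a single fold and p, so levels in single libraries and sequencing depth are unknown. A remark in the authors' deposited tables marks means below 10 molecules in a group, and none of the 36 values of the 6 arms carries it. All 9 neuron-enriched marker miRNAs, miR-124-3p among them, were free of that remark in all 6 comparisons. Of these 9, miR-138-5p was called lower at 0.44 of RD-RD in HCD-HCD males, and miR-137-3p lower at 0.54 and miR-132-3p higher at 1.72-fold in HCD-RD males, per the authors' deposited table. In HCD-RD females miR-7a-5p was called lower, at 0.44 in the authors' deposited table. The markers of oligodendrocytes, leukocytes and microglia, erythrocytes, vessels, choroid plexus, muscle and liver were free of it too, so none was near 0. Of the 6 leukocyte and microglia markers, the folds ran between 0.26 and 2.47 in HCD-HCD males and between 0.18 and 2.04 in HCD-RD males, with miR-155-5p called higher and both miR-142a arms called lower in each. In the other comparisons their folds ran between 0.36 and 1.62. The 4 oligodendrocyte markers ran between 0.34 and 2.09 in HCD-HCD males and between 0.32 and 2.34 in HCD-RD males, with miR-338-5p called higher and miR-219a-5p lower in each, and miR-338-3p also lower in HCD-RD males. Of the 4 erythrocyte markers, miR-144-3p was called lower in both these groups of males, and in HCD-RD males miR-144-5p was also lower and miR-486a-5p higher. Among 4 choroid plexus and ependymal markers, miR-34b-5p and miR-34c-5p were called lower and miR-204-5p higher in both groups. Of the 4 vessel markers, miR-126a-5p was called higher in HCD-HCD males and miR-126a-3p lower in HCD-RD males. In HCD-HCD females no marker of these types was called. Their folds there ran between 0.5 and 2.11 for oligodendrocytes and between 0.44 and 1.26 for choroid plexus and ependyma. For erythrocytes they ran between 0.67 and 1.65, and for vessels between 0.84 and 0.94. Muscle and liver markers, called in no comparison, ran between 0.98 and 2.13 in HCD-HCD and between 1 and 1.83 in HCD-RD females. Fewer cells of a type and less RNA per cell cannot be told apart in bulk tissue, and the part of cell makeup in the folds of the 6 arms was not tested.

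Library names carry order numbers, and those of the 10 libraries of RD-RD mice and RD-HCD females are all different. The 12 HCD-HCD and HCD-RD libraries also differ among themselves, but 7 of them repeat a number of those 10, as does 1 of the 3 RD-HCD male libraries. What the numbers mark is not in the labels. If they mark sets handled apart, set and dam diet cannot be told apart where HCD-HCD and HCD-RD mice are compared with RD-RD. For RD-HCD males, set and own diet might then not be told apart either, since 1 of the 3 repeats a number. RD-HCD females repeat no number of the RD-RD libraries. Within a sex, the comparisons share the RD-RD libraries.

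miR-342-5p stood above RD-RD in every male group and in the females of HCD dams. In the authors' deposited table for males it was 2.06-fold of RD-RD in HCD-HCD, 3.58-fold in HCD-RD and 2.09-fold in RD-HCD mice. The authors' deposited tables for females put it at 2.77-fold in HCD-HCD, 2.46-fold in HCD-RD and 1.03-fold in RD-HCD mice. HCD-RD males were thus highest and RD-HCD females were level with their controls. The log2 fold was 1.84 in HCD-RD males, with a standard error of 0.36 implied by the deposited p, and the adjusted p was 2.2e-05 (Benjamini-Hochberg over all miRNAs with a p from the authors' DESeq2 analysis). It was 1.30 with an implied standard error of 0.30 in HCD-RD females (adjusted p = 0.0031) and 1.04 with 0.36 in HCD-HCD males (adjusted p = 0.0273, and 0.214 by Benjamini-Yekutieli adjustment). RD-HCD males, at a log2 fold of 1.06 with an implied standard error of 0.36, had an adjusted p of 0.155. Their difference was nearly the same size as that of HCD-HCD males. Their unadjusted DESeq2 p, 0.0034, was the smaller one, beside 0.0042 for HCD-HCD males. The calls differ here through the adjustment, which depends on all p-values of a comparison. Of 1426 miRNAs, 463 had an unadjusted DESeq2 p under 0.05 for HCD-HCD males and 178 for RD-HCD males. HCD-HCD females, at a log2 fold of 1.47 with an implied standard error of 0.42, had an adjusted p of 0.07. Among miRNAs with no low-count remark, miR-342-5p had the highest fold of 775 in HCD-RD males and of 651 in HCD-HCD females, and the second highest of 870 in RD-HCD males.

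miR-342-3p, from the other side of the duplex, did not pass in any comparison. In the authors' deposited table for males it stood at 1.52-fold in HCD-HCD, 1.52-fold in HCD-RD and 1.17-fold in RD-HCD mice. Among females the authors' deposited tables gave 0.88 of RD-RD in HCD-HCD, 0.79 in HCD-RD and 1.13-fold in RD-HCD mice. Neither male group of HCD dams passed, with adjusted p-values of 0.0631 in HCD-HCD and 0.065 in HCD-RD males. Their log2 fold of 0.60 had an implied standard error of 0.25 in HCD-HCD and 0.24 in HCD-RD males, so both 95% intervals lay above 0 before adjustment. In HCD-RD females the 95% interval ran from 0.536 to 1.16 of RD-RD.

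miR-664-3p stood above RD-RD in both sexes, most in the offspring of HCD dams. In males the authors' deposited table put miR-664-3p at 2.13-fold in HCD-HCD, 2.46-fold in HCD-RD and 1.28-fold in RD-HCD mice. In females it was 2.66-fold in HCD-HCD, 1.8-fold in HCD-RD and 1.1-fold in RD-HCD mice, per the authors' deposited tables. All 4 groups of HCD dams were above both RD-HCD groups in fold. The log2 fold was 1.30 (implied standard error 0.27, adjusted p = 9.9e-05) in HCD-RD males and 1.09 (implied standard error 0.27, adjusted p = 0.00144) in HCD-HCD males. In HCD-HCD females it was 1.41 (implied standard error 0.34, adjusted p = 0.0412, and 0.325 by Benjamini-Yekutieli adjustment), and miR-664-3p was the 1 miRNA of 1497 called there. HCD-RD females had a log2 fold of 0.85 with an implied standard error of 0.30 and an adjusted p of 0.123.

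miR-664-5p, its partner, stood near RD-RD throughout. For males the authors' deposited table gave 0.92 of RD-RD in HCD-HCD, 1.13-fold in HCD-RD and 0.91 in RD-HCD mice. For females the authors' deposited tables gave 1.14-fold in HCD-HCD, 1.04-fold in HCD-RD and 0.99 in RD-HCD mice. Its 95% interval reached from 0.659 to 1.29 of RD-RD in HCD-HCD males and from 0.817 to 1.56 in HCD-RD males, which leaves room for a change of either sign. In HCD-HCD females the interval was wider, from 0.621 to 2.09. Its lowest adjusted p was 0.632, in HCD-RD males.

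miR-151-5p was highest in HCD-RD females. In the authors' deposited tables for females it stood at 1.83-fold in HCD-HCD, 2.79-fold in HCD-RD and 1.16-fold in RD-HCD mice. For males the authors' deposited table put it at 1.09-fold in HCD-HCD, 1.56-fold in HCD-RD and 1.55-fold in RD-HCD mice. HCD-RD females had a log2 fold of 1.48 with an implied standard error of 0.27 and an adjusted p of 9.3e-05, and the highest fold of 770 miRNAs with no low-count remark. No other group passed for miR-151-5p, with adjusted p-values of 0.215 in HCD-HCD females, 0.173 in HCD-RD males and 0.453 in RD-HCD males.

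miR-151-3p did not pass in any comparison, and its lowest unadjusted p was 0.112, in RD-HCD males of the authors' deposited table. The authors' deposited table for males gave it 0.73 of RD-RD in HCD-HCD, 1.21-fold in HCD-RD and 0.71 in RD-HCD mice. In females the authors' deposited tables put it at 1-fold in HCD-HCD, 0.91 in HCD-RD and 1.21-fold in RD-HCD mice. The 95% interval ran from 0.483 to 1.1 of RD-RD in HCD-HCD males and from 0.466 to 1.08 in RD-HCD males. Both groups of males on HCD were thus below RD-RD in fold, with intervals that include no difference.

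**Figure D2:**
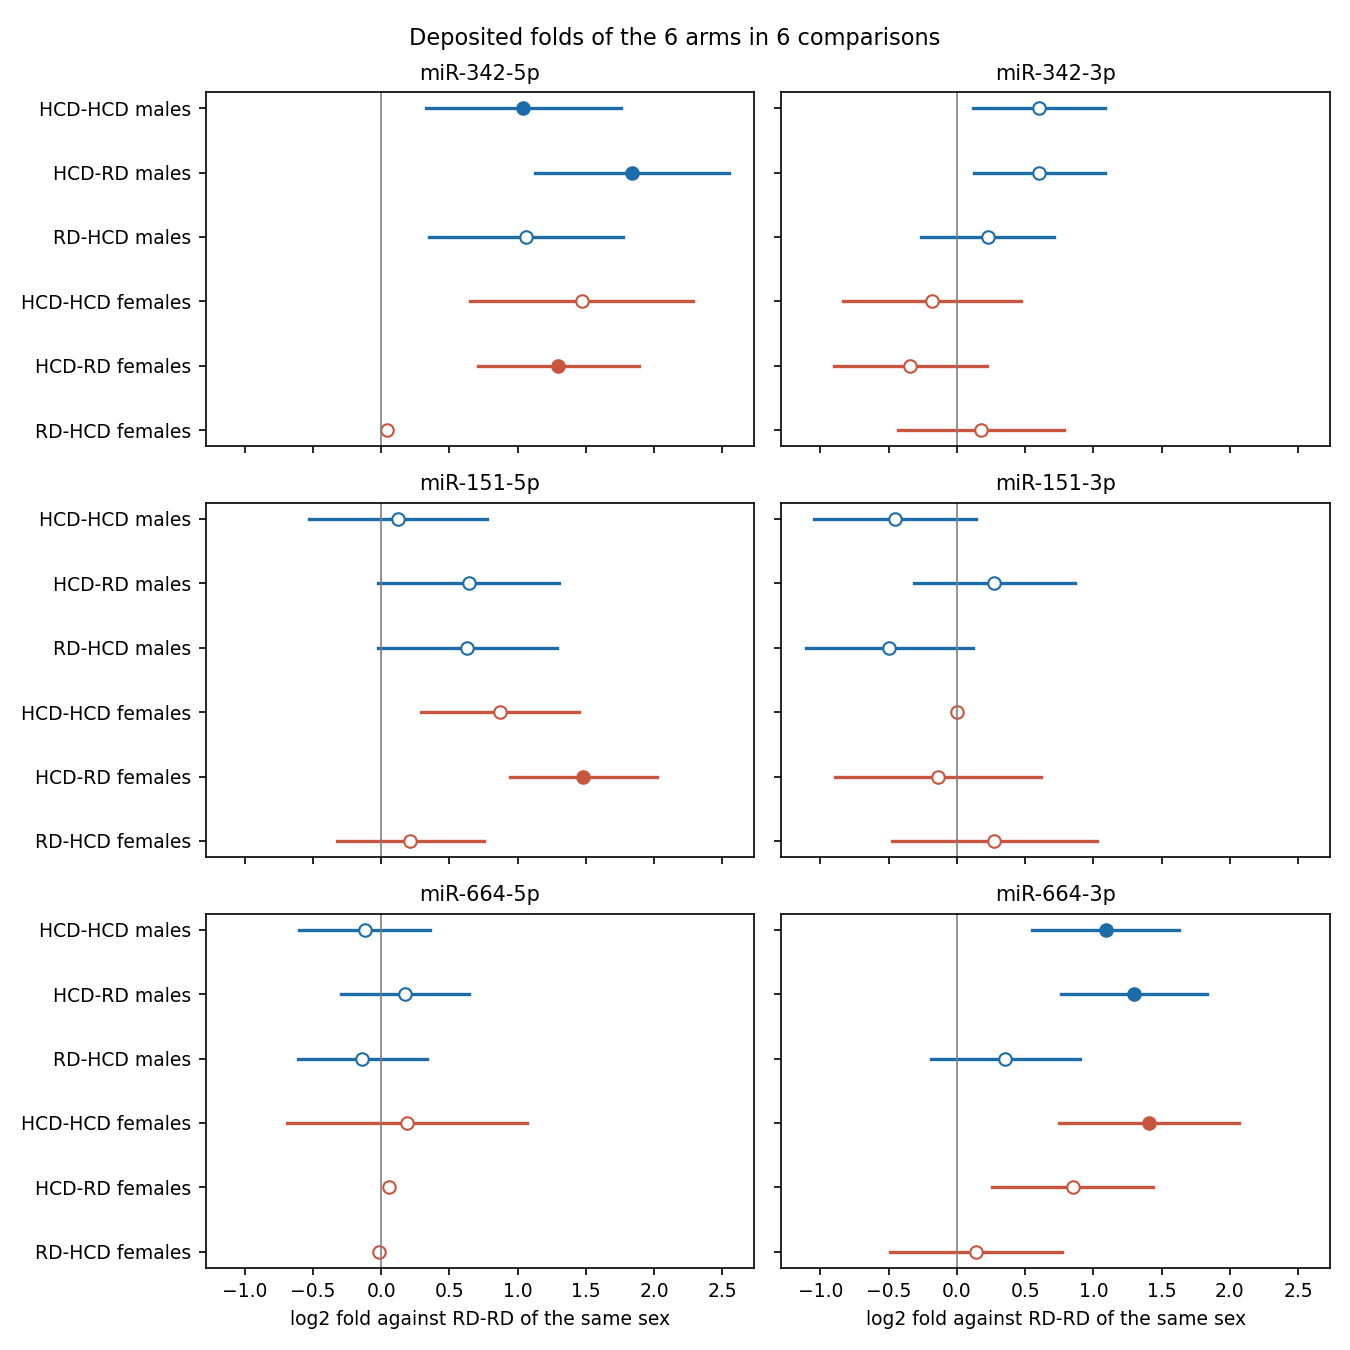
Log2 fold against RD-RD of the same sex for each of the 6 arms, by group, males in blue and females in red, with 95% intervals implied by the deposited p (none drawn for a log2 fold under 0.1 in size). Filled points passed an adjusted p under 0.05, and they lie on miR-342-5p, miR-151-5p and miR-664-3p, while all points of the partner arms are open.

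Of the 36 values, 7 passed an adjusted p under 0.05, all of them higher than RD-RD and all on 3 arms. In HCD-HCD males 2 of the 6 arms were called higher, beside 5.61% of 1426 miRNAs called higher, 13.7% called lower and 19.3% in all. In HCD-RD males it was 2 of 6, beside 6.38% called higher, 12% lower and 18.4% in all. RD-HCD males had 0 of 6, beside 0.14% called higher, 1.33% lower and 1.47% in all. There 1 arm, miR-342-5p, had an unadjusted DESeq2 p under 0.05, as did 178 of all 1426 miRNAs. Among females, HCD-HCD had 1 of 6, beside 0.0668% of 1497 miRNAs, and HCD-RD had 2 of 6, beside 1% of 1298 called higher, 0.693% lower and 1.69% in all. RD-HCD females had 0 of 6, beside 0% of 1497 miRNAs by Benjamini-Hochberg adjustment of the DESeq2 p-values, with 15 miRNAs, none of them an arm described here, at an unadjusted p under 0.05. The arms were chosen with these values known, so nothing is read from the counts. The median log2 fold of the 6 arms was 0.36, 0.62 and 0.29 in HCD-HCD, HCD-RD and RD-HCD males, beside 0.06, 0.08 and -0.01 over miRNAs with no remark and -0.27, -0.25 and -0.14 over all miRNAs. In females it was 0.53, 0.45 and 0.16, beside 0.03, 0 and -0.01 over miRNAs with no remark and 0.06, -0.06 and 0.03 over all miRNAs. In HCD-HCD females the number called depended on the miRNAs adjusted over: with the 648 miRNAs free of the remark, miR-342-5p also passed (adjusted p = 0.0303), and under Benjamini-Yekutieli adjustment 0 of 1497 did, while 84 had an unadjusted DESeq2 p under 0.05.

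The gap between the arms, taken as the log2 fold of the 5p minus that of the 3p arm, sets the arms of a hairpin against each other within the same libraries. A gap of 0 means that both arms changed by the same factor, and its error cannot be had from the deposited p-values because the errors of the arms are not independent. For miR-342 the gap was 0.44 in HCD-HCD males, 1.24 in HCD-RD males and 0.84 in RD-HCD males. In females the miR-342 gap was 1.65 for HCD-HCD, 1.64 for HCD-RD and -0.13 for RD-HCD mice. The ratio of the 5p to the 3p arm was thus 3.15 and 3.11 times that of RD-RD in HCD-HCD and HCD-RD females. The 95% intervals of the 2 arms lay apart in HCD-RD males, HCD-HCD females and HCD-RD females. They could not be compared in RD-HCD females, where miR-342-5p had no interval. Whether intervals lie apart describes each arm by itself and is no test of the gap, here or for miR-664 and miR-151.

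For miR-664 the gap was negative in all 6 comparisons, since the 3p arm had the higher fold. It was -1.21 in HCD-HCD males, -1.12 in HCD-RD males and -0.49 in RD-HCD males. The miR-664 gap in females was -1.22 for HCD-HCD, -0.79 for HCD-RD and -0.15 for RD-HCD mice. Intervals of the 2 arms lay apart in HCD-HCD and HCD-RD males. They could not be compared in HCD-RD and RD-HCD females, where miR-664-5p had no interval. For miR-151 the gap was 0.58, 0.37 and 1.13 in HCD-HCD, HCD-RD and RD-HCD males, and 0.87, 1.62 and -0.06 in the same groups of females. The miR-151 intervals lay apart in HCD-RD females. They could not be compared in HCD-HCD females, where miR-151-3p had no interval. RD-HCD females had the gap nearest to 0 for each of the 3 hairpins.

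Arm gaps were common among all hairpins, more so in males of HCD dams. Over hairpins whose arms both lacked the remark, the median size of the gap was 0.65 over 216 hairpins in HCD-HCD males, 0.62 over 216 in HCD-RD males and 0.31 over 243 in RD-HCD males. In females it was 0.42 over 187 hairpins in HCD-HCD, 0.34 over 215 in HCD-RD and 0.14 over 230 in RD-HCD mice, and over all 552 hairpins the HCD-HCD value was 0.17. A gap of at least 1 in size was found in 24.1% of hairpins in HCD-HCD males and likewise in HCD-RD males, and in 3.29% in RD-HCD males. Among females it was found in 10.2%, 7.44% and 0.435% of hairpins in HCD-HCD, HCD-RD and RD-HCD mice. In HCD-HCD males the miR-342 gap was smaller than that of 69.0% of hairpins and the miR-151 gap smaller than that of 55.1%, so neither stood out there. In HCD-RD females miR-342 and miR-151 had the largest and second largest gap of 215, and in HCD-HCD females miR-342 had the second largest of 187. In RD-HCD males, whose dams ate RD, miR-151 had the sixth largest of 243 and miR-342 ranked 21. No arm of either hairpin was called there, and the intervals of the arms overlapped in both. For miR-664, 13.4% of hairpins had a larger gap in HCD-HCD males, 18.1% in HCD-RD males and 7.49% in HCD-HCD females.

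**Figure D3:**
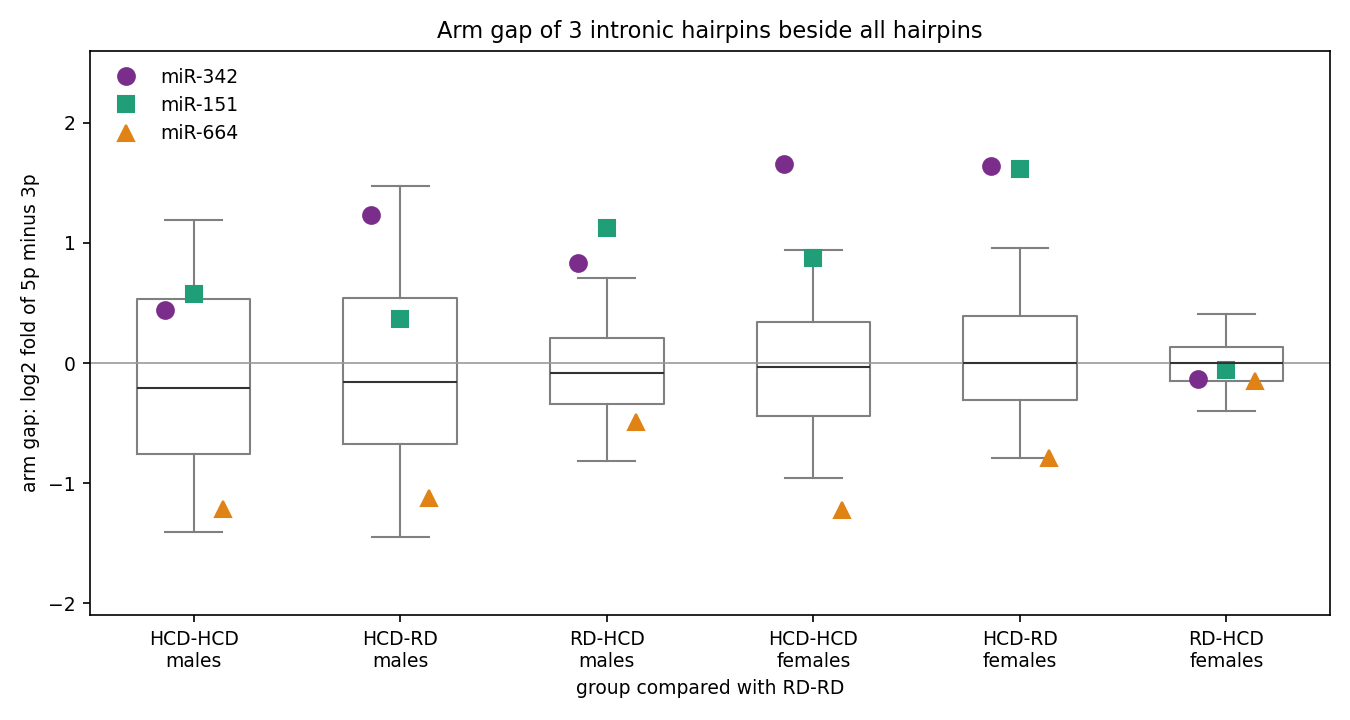
Arm gap (log2 fold of the 5p minus the 3p arm) of miR-342, miR-151 and miR-664 in each comparison with RD-RD, over boxes that show the quartiles of all hairpins free of the low-count remark, with whiskers at the 5th and 95th percentiles. miR-342 lies above the upper whisker in HCD-HCD and HCD-RD females, at 1.65 and 1.64, and in RD-HCD males, at 0.84. miR-151 does so in HCD-RD females, at 1.62, and in RD-HCD males, at 1.13. miR-664 lies below the lower whisker in HCD-HCD females, at -1.22. All 3 hairpins lie close to 0 in RD-HCD females.

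Over the 184 hairpins with both arms free of the remark in all comparisons, the median gap of miR-342 over the 6 comparisons, 1.04, was the seventh largest in size, that of miR-664, -0.96, ranked 13, and that of miR-151, 0.73, ranked 33. The sign of the gap was the same in all 6 comparisons for 54 of the 184, miR-664 among them. The comparisons of a sex share controls, so a gap in the RD-RD libraries would enter each of them. Among 53 other intronic miRNAs, 38 hairpins had a median gap size of 0.79 in HCD-HCD males, beside 0.65 over all hairpins, and 40 had 0.34 in HCD-RD females, beside 0.34. Base composition was compared with the gap as well. Across hairpins, which share libraries, the Spearman correlation of the gap with the difference in GC content between the arms lay between -0.07, over 181 hairpins in HCD-HCD males, and 0.10, over 155 hairpins in HCD-HCD females. That of the log2 fold with GC content lay between -0.07, over 663 miRNAs in HCD-HCD males, and 0.17, over 671 in HCD-RD males.

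**Figure D4:**
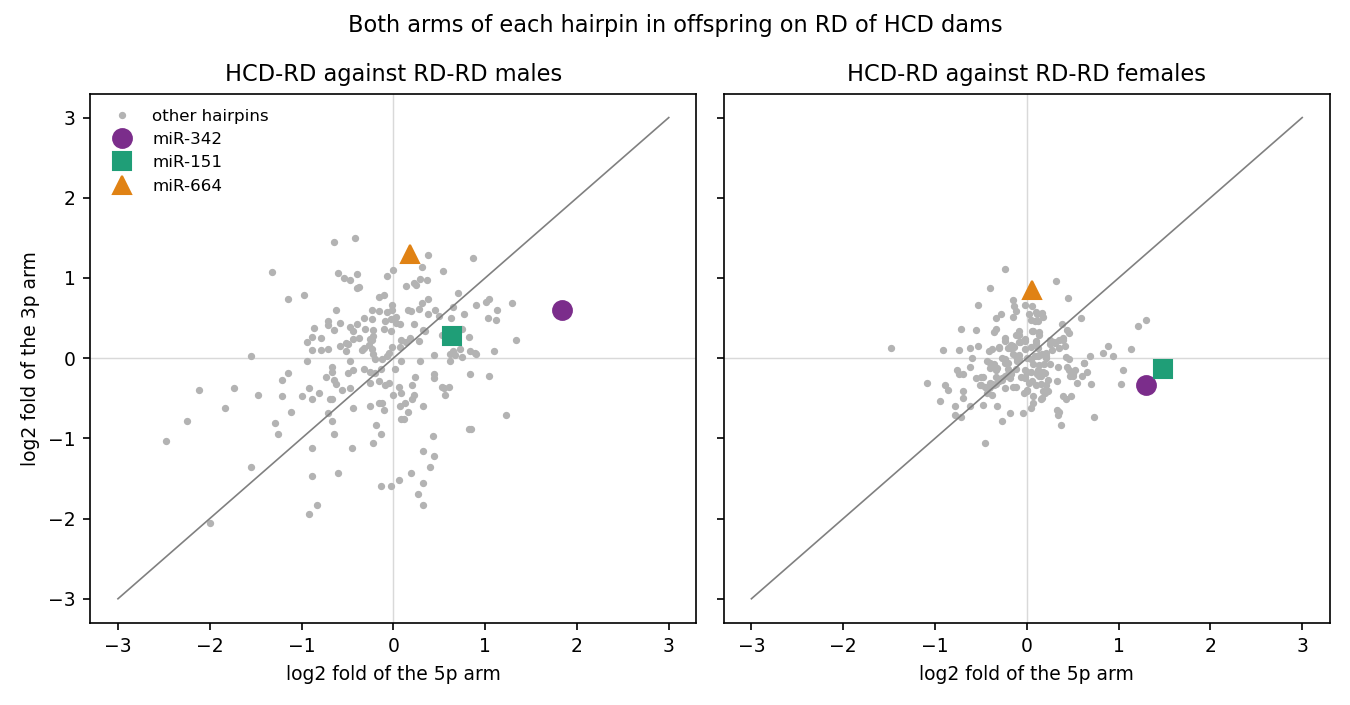
Log2 fold of the 3p arm against that of the 5p arm in HCD-RD males (left) and HCD-RD females (right), with 1 grey point per hairpin and the line of equal folds. miR-342 lies right of the line in both sexes, miR-664 left of it, and miR-151 far right only in females, where its 5p arm stood at 2.79-fold.

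Within the male table the folds can be set against each other, which gives an approximate ratio of groups other than RD-RD. For the 47 miRNAs that the authors' deposited tables also list directly for HCD-HCD against RD-HCD males, this ratio differed from the listed fold by a median of 0.12 and at most 1.07 on the log2 scale. Here miR-342-5p in HCD-HCD males stood at 0.575 of the HCD-RD level and miR-151-3p at 0.603, while 3.16% and 4.4% of 728 miRNAs with no remark differed by more. miR-151-5p stood at 0.699, miR-664-5p at 0.814, miR-664-3p at 0.866 and miR-342-3p at 1 of the HCD-RD level. All arms but miR-342-3p thus had a smaller fold in HCD-HCD than in HCD-RD males. Against RD-HCD males, HCD-HCD males had 1.66 times the miR-664-3p and 1.3 times the miR-342-3p, but 0.986 of the miR-342-5p and 0.703 of the miR-151-5p. The median size of that log2 difference was 0.29 over 752 miRNAs. The direct list in the authors' deposited tables, of 47 miRNAs that differ at least 2-fold at a p of at most 0.05, holds 0 of the 6 arms. With 1618 miRNAs tabled in all, most are absent from that list, so nothing is read from the 0. The ratios of all 6 arms given by the folds were smaller than 2-fold in either direction. HCD-RD over RD-HCD males gave ratios of 1.92 for miR-664-3p, 1.71 for miR-342-5p, 1.7 for miR-151-3p and 1.01 for miR-151-5p. In females, HCD-HCD over RD-HCD gave 2.69 for miR-342-5p, 2.42 for miR-664-3p and 1.58 for miR-151-5p, and 0.154%, 0.616% and 10.2% of 649 miRNAs differed by more.

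Males and females were normalised in separate tables, so only their folds are set side by side. For miR-664-3p the folds of males and females were 2.13 and 2.66 in HCD-HCD, 2.46 and 1.8 in HCD-RD and 1.28 and 1.1 in RD-HCD mice of the authors' deposited tables, with overlapping 95% intervals in each. miR-342-3p had folds above 1 in males and below 1 in females of HCD dams, a log2 difference of 0.79 in HCD-HCD and 0.94 in HCD-RD mice, with overlapping intervals in both. miR-151-5p was lower in males than in females of HCD dams, by a log2 difference of -0.75 in HCD-HCD and -0.84 in HCD-RD mice, again with overlapping intervals. In RD-HCD mice miR-342-5p had the widest difference between males and females, 1.02 on the log2 scale, and no interval can be given for females there. None of these differences between the sexes was tested.

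Likeness to other miRNAs was measured as the root mean square difference of log2 folds over the 6 comparisons, among 629 miRNAs free of the remark in all of them. miR-342-5p was nearest to miR-139-5p, from an intron of Pde2a, at 0.34, followed by miR-664-3p at 0.41 and miR-338-5p at 0.48. miR-664-3p was nearest to miR-338-5p, from an intron of the brain kinase gene Aatk and listed above as an oligodendrocyte marker, at 0.17, followed by miR-139-5p at 0.27 and let-7c-5p at 0.29. The authors' deposited tables put miR-139-5p at 1.69, 2.53 and 1.65 times RD-RD in HCD-HCD, HCD-RD and RD-HCD males and at 2.29, 2.2 and 1.33 times in females. miR-342-3p was nearest to miR-125a-5p and miR-125b-5p, at 0.08 and 0.09, and to miR-191-5p at 0.11. miR-151-5p was nearest to miR-674-5p at 0.25, then miR-27b-5p at 0.27 and miR-200c-5p at 0.31, and miR-151-3p to miR-673-3p at 0.14, then miR-485-5p and miR-423-3p at 0.23 each. miR-664-5p, whose folds stayed near 1, lay at 0.11 from miR-7093-5p, 0.11 from miR-1188-5p and 0.12 from miR-7235-3p. An arm's own partner was never among its 3 nearest. Of the 628 others, miR-342-3p ranked 242 from miR-342-5p, nearer than the median miRNA by this measure, but 319 by Pearson correlation. In turn miR-342-5p ranked 592 from miR-342-3p. Likewise miR-151-3p ranked 375 from miR-151-5p, and miR-151-5p ranked 584 from miR-151-3p. For miR-664 the 5p arm ranked 278 from the 3p arm, or 85 by Pearson correlation, and the 3p arm ranked 598 from the 5p arm, or 41 by Pearson correlation. The arms of miR-342 differed by 1.14, the sixth largest difference of 184 hairpins, against a median of 0.51, while those of miR-151 and miR-664 differed by 0.92 each.

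Other intronic miRNAs moved in both directions. Of 110 arms with a p from 53 intronic miRNAs, 16 were called higher and 16 lower in HCD-HCD males, 29.1% of them beside 19.3% of all miRNAs. In HCD-RD males 18 were called higher and 16 lower, 30.9% beside 18.4% of all miRNAs, and in RD-HCD males 0 and 1, 0.909% beside 1.47%. These sets are unlike, since 102 of the 110 arms lacked the low-count remark in HCD-HCD and in HCD-RD males. Adjusted over miRNAs without the remark alone, 177 of 757 were called in HCD-HCD and 193 of 765 in HCD-RD males. The called arm in RD-HCD males, named after its value was seen, was miR-153-5p, which carries the low-count remark. Of 107 such arms in HCD-RD females 5 were called, 4.67% beside 1.69% of all miRNAs. There 101 of the 107 lacked the remark, and 31 of 755 miRNAs without it were called when adjusted alone. These 5 are named after their values were seen. The authors' deposited table gave miR-592-5p a fold of 1.97, miR-148b-5p 1.91, miR-140-5p 1.85, miR-32-5p 1.78 and miR-7a-5p 0.44. In HCD-HCD and RD-HCD females 0 of the 110 arms were called by Benjamini-Hochberg adjustment of the DESeq2 p-values, while 16 and 2 of them had an unadjusted p under 0.05. The 6 arms had median log2 folds of 0.36, 0.62 and 0.29 in HCD-HCD, HCD-RD and RD-HCD males, against 0.06, 0.10 and 0.05 for the 110 arms of the list. Among called arms of the list with no low-count remark, miR-346-5p was highest in HCD-RD males, at 2.63-fold in the authors' deposited table. It comes from an intron of the glutamate receptor gene Grid1. Next in the authors' deposited table was miR-574-3p, which reached 2.6-fold. The authors' deposited table gave miR-15b-3p a fold of 2.75 and miR-98-5p a fold of 2.47 in HCD-HCD males, the highest of such called arms there. Lowest of such called arms in HCD-HCD and HCD-RD males was miR-33-5p of the Srebf2 intron, with folds of 0.25 and 0.21 in the authors' deposited table. Next lowest in the authors' deposited table was miR-708-3p, with folds of 0.31 and 0.28.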

How the data were processed

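The authors sequenced small RNA of 25 hypothalamus libraries in 8 groups with a QIAseq miRNA kit, per the labels' protocols. Per the file headers, the authors normalised UMI counts with DESeq2, separately in 3 tables (males, HCD-HCD and RD-HCD females, and HCD-RD females). The deposited fold is a ratio of a group over RD-RD, to 2 decimals, and the deposited p-value is unadjusted, from the authors' DESeq2 run. A list of HCD-HCD against RD-HCD males was deposited with fold regulation, the fold or minus its inverse. The submitters' processing notes name build mm10, and no aligner or annotation is given in the sources used here. The sample sheets name 43 libraries, and 18 of these were not analysed here. For RD-HCD males the workbook and the sample titles number the libraries differently within the same group code.

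Adjustment by Benjamini-Hochberg ran over every miRNA with a p (103 piRNA entries left out), with calls under 0.05. The edgeR test considered for counts was not used, because no counts are held in the tables. An implied standard error divides the size of a log2 fold by the normal score of its deposited p, and was left out below a log2 fold of 0.1. The 95% intervals built on it cover only the spread behind that p. Arms were paired by name. The arms and lists were chosen with earlier results of these data known. Named are the 6 arms, for each the 3 nearest miRNAs, miRNAs with a shared seed, and the 2 highest and 2 lowest called intronic miRNAs with no remark per male comparison. The code for adjustment and implied standard errors was run on simulated independent normal values. That run tests neither the deposited p-values nor the calls made from them. Alternatives were adjustment without low-count miRNAs, with piRNAs or by Benjamini-Yekutieli, centred folds, all hairpins, and Pearson correlation. Python 3.11.15, SciPy 1.17.1, RNAfold 2.7.2, RefSeq and GENCODE M21 were used.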

Additional observations from a re-analysis of the deposited data

How the results depend on the processing

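No paired analysis was possible because the folds and p-values come without a value per library, and for the same reason no library could be left out. All 36 log2 folds of the 6 arms shifted little when centred on the median of miRNAs with no low-count remark (the largest shift was 0.0841, in HCD-RD males), and including piRNAs kept all counts of calls within 1.5 times. Benjamini-Yekutieli adjustment lowered the calls to 122 in place of 275 in HCD-HCD males, 131 in place of 262 in HCD-RD males, 6 in place of 21 in RD-HCD males, 7 in place of 22 in HCD-RD females and 0 in place of 1 in HCD-HCD females. The called arms were then 1 in HCD-HCD males, where miR-342-5p was lost, and 0 in HCD-HCD females. Adjusted without low-count miRNAs, 177 passed in HCD-HCD males (49.2% of them higher, against 29.1% over all), 193 in HCD-RD males (48.7% higher, against 34.7%), 0 in RD-HCD males (69 at an unadjusted DESeq2 p under 0.05) and 11 in HCD-HCD females (3 higher, 8 lower), where 2 arms were called in place of 1, miR-342-5p being added. With Pearson correlation the partner of miR-664-3p ranked 85 in place of 278, that of miR-664-5p 41 in place of 598, that of miR-342-3p 325 in place of 592 and that of miR-151-3p 256 in place of 584. Fewer miRNAs enter the adjustment without low-count miRNAs, and the cause of the other moves was not tested. Depth is unknown, which limits what small folds can show.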
